A study of Homo sapiens with 6 samples.

Results

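The probes described here are the oligonucleotides whose names begin with A_23_P, A_24_P or A_32_P, which are series of the Agilent expression catalogue. They were chosen by name alone, and 17465 of the 75217 rows of the deposited table belonged to them. Of these, 11605 were A_23 probes, 4384 were A_24 probes and 1476 were A_32 probes. They made up 23.2% of the 75149 probes for RNAs on the array, and the other 57684 were named A_33 (12152 probes), A_19 or A_21 (4618 probes), p (38141 probes) or RNA (2773 probes). Every A_23, A_24 and A_32 probe was printed in 2 spots, 34930 spots in all, whereas the other probes had 2 or 3 spots.

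The array compared KYSE30 cells, a human cell line of esophageal squamous cell carcinoma (ESCC), that overexpressed *Epist*, a long noncoding RNA, with KYSE30 cells that carried the control vector. Both groups were stable lines, and the *Epist* sequence was carried by the lentiviral vector pCDH-MSCV-MCS-EF1-GFP+Puro, so each group rests on 1 transduced line. There were 3 biological replicates in each group, labelled with Cy3 for the control and Cy5 for *Epist*, and the 2 samples with the same number were hybridized together on 1 of 3 arrays. No array had the dyes exchanged, so the dye and the overexpression cannot be told apart. The purpose of the experiment was to find genes whose expression changed when *Epist* was overexpressed.

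A two-colour array measures RNA by competition. Labelled nucleic acid copied from 2 RNA samples binds the same printed oligonucleotide, and the brightness in each colour follows the amount of the matching transcript, while dye, probe sequence and local background also enter the signal. The older catalogue series were designed mostly for protein-coding messenger RNAs, which as a class are more abundant in cells than long noncoding RNAs. Many long noncoding RNAs are known to act in the nucleus on the expression of other genes, and messenger RNA probes are the usual readout of such an action. The files used here list probe names with neither gene nor sequence, so the results are given for probes, genes are not named, and the cell line was not checked against marker genes. In a bulk sample, fewer expressing cells and less RNA per cell cannot be told apart.

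Most A_23, A_24 and A_32 probes gave a signal in both cell lines. A probe counted as detected when the scanner software marked no less than 50 percent of its spots in that sample as well above background. In controls 1, 2 and 3, 77.3%, 77.2% and 77.5% of them were detected, and in the *Epist* samples 83.0%, 84.2% and 84.9%. The groups did not overlap, and every *Epist* sample was above every control sample. The means were 77.3% ± 0.135 (SD, n = 3) and 84.0% ± 0.981 (SD, n = 3), and the two-sided exact permutation test returned p = 0.1, which is the lowest value that 3 against 3 samples can reach. The same order of the groups held for the other probes, where 53.7% ± 0.357 (SD, n = 3) were detected in the control and 66.1% ± 1.86 (SD, n = 3) in *Epist*. The A_33 probes lay closer to the older series, with 71.8% ± 0.228 (SD, n = 3) and 80.7% ± 1.45 (SD, n = 3).

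The difference in detection between the name classes was larger in the control than in the *Epist* samples. On the 3 arrays the share was 23.9, 23.5 and 23.4 percentage points above that of all other probes in the control, and 19.0, 17.7 and 17.3 points above it in *Epist*. Detection increased less from control to *Epist* among the older series than among the rest, with differences between the increases of -4.97, -5.81 and -6.16 points on the 3 arrays. Each of these differences had the same sign on 3 of 3 arrays. The exact sign-flip permutation test over 3 arrays cannot go below 0.25, which was the two-sided p in all 40 comparisons between name classes and also the value after Benjamini-Hochberg adjustment.

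The change in detection was in one direction almost without exception. Of the 17465 probes, 13018 (74.5%) were detected in all 6 samples, against 49.8% of the other probes and 68.1% of the A_33 probes. A further 1219 (6.98%) were detected on every *Epist* array and missed on at least 1 control array, whereas 2 probes showed the reverse. This asymmetry was wider among the other probes, at 12.2%, and among the A_33 probes, at 9.27%. Detected in no sample were 2166 probes (12.4%), against 28.6% of the others. Among the 3325 probes that no control array detected, 513 (15.4%) were detected on every *Epist* array, a share close to the 14.6% of the other probes that started from the same state. The channel with more detected probes had the lower background. Spots for negative controls, sequences that match no transcript, had median processed signals of 8.23, 7.83 and 7.74 in the Cy3 channel and of 4.29, 3.62 and 3.21 in the Cy5 channel. The part of this background in the detection difference was not tested.

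The 3 series were not alike in detection. In the control samples 77.5% ± 0.174 (SD, n = 3) of the A_23 probes and 78.9% ± 0.15 (SD, n = 3) of the A_24 probes were detected, compared with 70.9% ± 0.341 (SD, n = 3) of the A_32 probes. In the *Epist* samples the shares were 84.3%, 84.8% and 79.1%. The A_32 probes were the lowest of the 3 series in each of the 6 samples.

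The probes of the older series were brighter than the rest of the array. The median log2 processed signal, before any normalization between samples, was 8.04, 7.99 and 8.01 in the control samples and 8.03, 7.97 and 8.00 in the *Epist* samples. The groups overlapped when the samples were taken as unpaired (exact permutation test, two-sided p = 0.6). Within each array the *Epist* median was slightly lower, with differences of -0.015, -0.016 and -0.015, a small and even shift in one direction on 3 of 3 arrays (exact sign-flip permutation test, two-sided p = 0.25, its lowest value). For all other probes the medians were 5.52 ± 0.0042 (SD, n = 3) in the control and 5.56 ± 0.0044 (SD, n = 3) in *Epist*, so that the older series lay higher by 2.50 and 2.44 on the log2 scale, with the same sign on 3 of 3 arrays. The A_33 probes had medians of 7.18 and 7.21, which was lower by 0.83 and 0.79 than the older series. Among the 3 series, the A_24 probes had the highest median in the control (8.14), followed by A_23 (8.05) and A_32 (7.37).

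At the dim end of the distribution the groups did not overlap, unlike at the median. The 10th percentile of the log2 processed signal was 3.09, 3.04 and 3.01 in the control samples and 2.49, 2.43 and 2.36 in the *Epist* samples, without overlap (exact permutation test, two-sided p = 0.1, the smallest possible). The other probes showed a wider gap at this end, with 2.99 ± 0.044 (SD, n = 3) in the control and 1.90 ± 0.20 (SD, n = 3) in *Epist*. At the bright end, the 90th percentile was 11.51 in the control and 11.47 in *Epist* on average, and the groups overlapped, although the *Epist* value was the lower one on each of the 3 arrays. The lower *Epist* values at the dim end moved with the lower signal of the negative control spots in the Cy5 channel. Their part in it was not tested.

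Replicates of the older series varied little. Over the 14239 of them that were tested, the median SD between the 3 samples of a group was 0.12 in the control and 0.13 in *Epist* on the normalized log2 scale. The values for the 35765 other tested probes were 0.15 in both groups. The 2 spots of a probe within a sample had a median SD of 0.092 in the control and 0.083 in *Epist*, against 0.13 and 0.11 for the other probes, and the older series had the smaller value on all 3 arrays in both channels.

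At equal brightness the spread between replicates was nearly the same in both. The tested probes were divided into 10 bins by their mean normalized log2 signal over the 6 samples, with an open bin under 5, an open bin from 13 upward and bins of 1 log2 unit between them, and the other probes were weighted to the bin counts of the older series. At matched signal the SD between control samples was 0.14 for both, as was the SD between *Epist* samples, and the older series had the larger median SD in 5 of 10 bins in each group. The SD between spots was 0.118 for the older series and 0.123 for the others, and it was smaller for the older series in 9 of 10 bins, but against the A_33 probes (0.117) it was the larger one, and smaller in 3 of 10 bins. The median SD of the control samples fell from 0.37 for probes with a mean log2 signal under 5 to 0.088 for those between 12 and 13. The log2 difference between the 2 channels of an array varied more across the arrays for the older series, with a median SD of 0.143 against 0.133 at matched signal, but the A_33 probes (0.141) and the A_19 and A_21 probes (0.140) lay close to them. Without matching, the order was the reverse, at 0.130 for the older series and 0.142 for the others.

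Few of these probes changed much between KYSE30 cells overexpressing *Epist* and the controls. Testing was limited to probes detected in every sample of the control group, of the *Epist* group or of both, which kept 14239 of the 17465 probes (81.5%), 62.0% of the other probes and 77.3% of the A_33 probes. Of the 14239, 92.8% had a log2 fold change within 0.5 of 0, and 85 (0.597%) had a fold change of at least 2 in either direction, compared with 93.6% and 0.496% of all probes tested. At the matched signal described above, 0.303% of the other probes reached this fold. By name class it was 0.393% for A_33, 0.421% for A_19 and A_21, 0.285% for p and 0.0979% for RNA. Without matching, 0.626% of the A_19 and A_21 probes reached it. The median log2 fold change of the older series was -0.0051, while that of all 50004 probes tested was 0.027 and that of the other probes was 0.039. The detection filter kept 7045 of the other probes and 1219 of the older series through the *Epist* samples and not through the controls. Without the filter the medians were -0.011 for the older series and 0.00038 for all probes, and among probes detected in all 6 samples they were -0.015 and 0.013. At matched signal, the older series differed from the other probes by -0.037, by -0.030 without the filter, and by -0.041 among probes detected in both groups. The part of the filter in these differences was not tested. The log2 fold change was negative for 50.8% of the older series and for 42.8% of the other probes. The 3 series differed, with medians of -0.0040 for A_23, -0.015 for A_24 and 0.027 for A_32. It was negative for 50.6%, 52.7% and 46.25% of these probes.

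More of the called probes were lower than higher in *Epist*. In limma, at an adjusted p under 0.05 with Benjamini-Hochberg adjustment over all probes tested, 380 of the older series were higher and 688 were lower. These were 2.67% and 4.83% of the 14239 probes, against 1.81% and 2.83% of all probes tested. The A_33 probes had 2.03% higher and 2.17% lower. Each of the 1068 called probes changed in one direction on all 3 arrays and in every spot, with no overlap between the groups. A call at this threshold favours such probes, so this is no separate support for the calls. Their median log2 fold change was 0.52 for the higher and -0.53 for the lower. Without any test, the groups did not overlap for 14.5% of the older series in the direction of *Epist* being higher and for 18.6% in the direction of *Epist* being lower, compared with 13.8% and 13.4% of all probes tested.

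The number of calls depended on how the arrays entered the fit. When each array was entered as a block, so that its 2 samples were compared with each other, limma called 1655 probes higher and 2248 lower, 11.6% and 15.8% of the older series, against 9.82% and 10.7% of all probes tested, and all 1068 calls made without the block were among them. Without the block, no probe remained higher and 2, 0 and 3 remained lower when array 1, 2 or 3 was left out, although limma gave 2951, 3052 and 2669 probes of the older series an unadjusted p under 0.05 in these fits. These were 20.4%, 21.3% and 18.7% of those tested, against 14.7%, 16.0% and 13.3% of all probes tested.

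At matched signal the older series changed more often than the other probes, mostly by being lower. In the bins of brightness described above, 4.83% of them were called lower by limma, against 2.55% of the other probes weighted to the same brightness, which is 1.89 times as often. The shares called higher were 2.67% and 2.01%, a ratio of 1.33. With the array as a block these ratios were smaller, at 1.52 for the share lower (15.8% and 10.4%) and 1.05 for the share higher (11.6% and 11.1%). The share lower was above that of the other probes in 10 of 10 bins, and the share higher in 9 of 10. In the brightest bin, with mean log2 signals of 13 and over, 8.99% of 556 probes were lower and 8.81% were higher, compared with 6.06% and 5.72% of 891 others. In the dimmest bin, under 5, 0.69% of 725 probes were called in each direction, compared with 0.254% lower and 0.456% higher among 3944 others. The shares called rose with brightness in both sets, for example from 3.07% lower at 6 to 6.27% at 10 in the older series and from 1.63% to 3.03% in the others.

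Set against the A_33 probes, which are nearest to them in signal, the older series were also called lower more often, at 4.83% against 2.35% at matched signal, and in 10 of 10 bins. The shares called higher lay closer together, at 2.67% and 2.24%, and the older series had the larger share in 8 of 10 bins. With the array as a block, 11.6% of the older series and 11.7% of the A_33 probes at matched signal were higher, while 15.8% and 10.6% were lower. At matched signal, 2.89% of the probes named p, 0.413% of those named RNA and 2.93% of the A_19 and A_21 probes were called lower. Bins hold different probes of the same 3 arrays, so that they are no independent repeats.

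The same difference was present on each array, and it was small. The median absolute log2 difference between the channels at matched signal was larger for the older series than for all other probes by 0.019, 0.026 and 0.022 on arrays 1, 2 and 3. The signed log2 difference, *Epist* minus control, was below that of the other probes, with differences of -0.032, -0.038 and -0.045. Against the A_33 probes the signed differences were -0.026, -0.042 and -0.035. All 3 arrays showed the same direction in each comparison, and the exact sign-flip permutation test again returned its lowest value, 0.25. The median log2 fold change was below that of the other probes in 9 of 10 bins, the exception being the dimmest. The part of the detection filter in the dimmest bin was not tested.

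Changes of at least 2-fold were rare and mostly decreases. In limma, at an adjusted p under 0.05, 13 probes of the older series were at least 2-fold higher and 45 at least 2-fold lower in *Epist*. These were 0.0913% and 0.316% of those tested, compared with 0.086% and 0.196% of all probes tested, so that the share of increases was near the background. By the same rule 0.295% of the A_19 and A_21 probes were lower, close to the older series. The shares lower were 0.149% for A_33, 0.144% for p and 0% for RNA. Of the 13 higher probes, 6 were not detected on any control array and entered the test only through the *Epist* samples, whereas 1 of the 45 lower probes was missed on at least 1 *Epist* array. On each of the 3 arrays separately, 7 of the 13 and 22 of the 45 reached 2-fold. The 45 decreases comprised 34 A_23 probes, 11 A_24 probes and no A_32 probe, which is 0 of 1120 A_32 probes tested, and the 13 increases comprised 7, 4 and 2. In limma without the 2-fold requirement, 28 A_32 probes were lower and 28 were higher, 2.5% of those tested in each direction, against 2.83% and 1.81% of all probes tested. With the array as a block, 11.8% of the A_32 probes were lower, against 10.7% of all probes tested, so that the order of the A_32 probes and the whole array depended on the fit. With the array as a block, limma called 32 probes of the older series at least 2-fold higher and 50 lower, 0.225% and 0.351% of those tested, against 0.236% and 0.218% of all probes tested.

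Other processing changed the 2-fold counts to differing degrees. With normexp background correction followed by loess and Aquantile normalization, limma called 4 probes of the older series higher and 11 lower. These were 0.0281% and 0.0773% of them, against 0.02% and 0.056% of all probes tested. The shares lower were 0.147% for A_19 and A_21, 0.0639% for A_33, 0.0325% for p and 0% for RNA. When only the 13018 probes detected in all 6 samples were tested, 7 were higher and 44 lower, which was 0.0538% and 0.338% of them, against 0.0335% and 0.23% of all probes tested in this way. The shares lower were 0.369% for A_19 and A_21, 0.169% for A_33, 0.182% for p and 0% for RNA. The latter filter removes increases from an undetected control by its construction.

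The 2 spots of a probe mostly gave a change of the same sign. Over the 14239 probes tested, the log2 differences of the first and the second spot, each averaged over the arrays, had the same sign for 12397, and their Pearson correlation was 0.82. This correlation is across probes, which are not independent replicates, and both spots share an array and an RNA sample.

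Changes past 2-fold with an unadjusted p under 0.05 by the methods' t-test were found for 27 higher and 47 lower probes of the older series. Over all probes tested it called 0.196% higher and 0.21% lower, while the shares of the older series were 0.19% and 0.33%. The shares it called lower were 0.33% for A_19 and A_21, 0.16% for A_33, 0.158% for p and 0% for RNA. After Benjamini-Hochberg adjustment of the same test, 1 probe was higher and 14 were lower at 2-fold, against 0.012% and 0.048% of all probes tested. The methods' t-test in paired form, which uses the samples of each array together, called 22 higher and 48 lower without adjustment, against 0.156% and 0.204% of all probes tested, and after adjustment 0 in either direction, as for all probes tested.

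The 2 called probes with the largest fitted log2 fold changes upward on the quantile normalized scale, A_23_P44155 and A_23_P111662, were detected in none of the controls. They passed the detection filter only through the *Epist* samples, where they were high. Their adjusted p therefore supports nothing beyond the call itself, and the folds given for them are not exact. A_23_P44155 had normalized log2 signals of 2.74, 2.43 and 3.08 in the control samples and 5.07, 4.51 and 4.69 in the *Epist* samples. The lowest *Epist* sample was above the highest control sample. The probe was detected on 0 of 3 control arrays and on 3 of 3 *Epist* arrays. The adjusted p was 0.0157 in limma on the quantile normalized scale. After normexp background correction, loess and Aquantile normalization, it was fitted as 1.33-fold higher in *Epist*. This fold compares means and does not include their spread. On all 3 control arrays the probe's own signal was above the dimmest detected signal and was used, so the fold is no lower limit.

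The normalized log2 signals of A_23_P111662 were 3.17, 3.35 and 2.91 in the control samples and 5.21, 4.74 and 5.44 in the *Epist* samples, again without overlap. It was likewise detected on 0 of 3 control arrays and 3 of 3 *Epist* arrays. The adjusted p was 0.0111 in limma on the quantile normalized scale. After normexp, loess and Aquantile it was fitted as 1.41-fold higher in *Epist*, which is again no lower limit.

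The 2 called probes with the largest fitted decreases on the quantile normalized scale were detected in all controls. A_23_P2920 had normalized log2 signals of 6.15, 6.23 and 6.51 in the control samples and 4.14, 4.84 and 4.70 in the *Epist* samples. Every *Epist* sample was below every control sample, and 2 of 3 *Epist* arrays still detected the probe. Its fitted log2 fold change was -1.74 (standard error 0.22, adjusted p 0.00859 in limma), and -0.69 with normexp, loess and Aquantile (adjusted p 0.0115 in limma). Not every *Epist* array detected the probe, so neither value is exact.

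A_24_P158089 had the smallest standard error of these 4 probes. Its normalized log2 signals were 7.12, 7.19 and 7.50 in the control samples and 5.39, 5.48 and 5.78 in the *Epist* samples, and it was detected on all arrays in both groups. The log2 difference was -1.73, -1.71 and -1.72 on arrays 1, 2 and 3, and its spot pairs lay between -1.88 and -1.53. The log2 fold change was -1.72 (standard error 0.15, adjusted p 0.00342 in limma), and with normexp, loess and Aquantile it fell by 1.05 (adjusted p 0.00357 in limma).

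Without the block, each of the 4 probes lost the adjusted threshold in limma on removal of any 1 array, with adjusted p between 0.0549 and 0.17. The fitted log2 fold changes of the decreases stayed of similar size in these fits, between -1.91 and -1.60 for A_23_P2920 and between -1.724 and -1.718 for A_24_P158089. With the block, both decreases passed when any 1 array was left out, with a highest adjusted p of 0.00171 in limma. This setting was chosen after seeing the data. Beyond the loss of the threshold, the increases are left out of this check, because they entered the test only through the *Epist* samples. In the blocked limma fit of all arrays the adjusted p was 0.000287 for A_23_P2920 and 1.9e-05 for A_24_P158089.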

How the data were processed

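Per the labels, RNA of KYSE30 cells with *Epist* (Cy5) or the control vector (Cy3) was hybridized to two-colour Agilent arrays, 3 replicates per group. Both samples of an array had the same deposited file, from which the channel of the labelled dye was read. The authors made the processed signal intensity of each spot with Feature Extraction, which subtracts background and scales the dyes; per the file headers its version was 11.5.1.1, whereas the methods name an earlier one. Other columns deposited beside it are flags for control spots, outliers, saturation and signal well above background, and median signals and backgrounds. The deposited series table holds log2 values that the authors quantile normalized; 0 per-sample columns were left unmatched.

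Here the spots of a probe were averaged as log2 processed signal. Control spots and outlier flags were omitted, which left 48 probes without a value, 1 of them in the older series. It was quantile normalized over the 6 samples and compared with limma 3.58.1 in R 4.3.3 (lmFit, eBayes with trend), with Benjamini-Hochberg adjustment over the 50004 probes detected on all 3 arrays of at least 1 group. No RNA spot was saturated, and the number of arrays limits the precision. The other name classes were compared within 10 bins of brightness with Python 3.11.15. The t-test of the methods (Student, two-sided, equal variances) was run on these values too. Scripts were tested on simulated data.

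Same-numbered samples came from 1 array each. After subtraction of the group means they correlated at 0.597, 0.634 and 0.648 over all probes tested, and a second fit took the array as a block. All arrays lay on 1 slide, so a slide block was not run. The 4 probes named are the 2 largest increases and the 2 largest decreases on the quantile normalized scale, among called probes with all arrays in one direction. With normexp, loess and Aquantile, A_23_P44155, A_23_P111662 and A_23_P2920 did not reach 2-fold. Limma called 4 probes of the older series at least 2-fold higher and 11 lower there, so the rank does not hold on that scale. Gene lists and marker genes could not be used, since genes are not given for the probes. Earlier results of these data were known when the members, lists and tests were chosen, although the members were set by probe name alone. The settings were planned, except those given as chosen after seeing the data.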

Additional observations from a re-analysis of the deposited data

How the results depend on the processing

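Of 190 values under other settings, 129 counted as unchanged, 49 as moved, 12 as weaker and 0 as reversed. Counts, shares and spreads have no sign to reverse. Some of the 129 could not change, as the block leaves fold changes as they are. For probes with 2 spots, counting any spot is the same detection rule as 50 percent. The 129 also include values of the named increases, which entered the test only through the *Epist* samples. For single probes, unchanged meant the same direction and side of the threshold. Counts, ratios and spreads had to stay within 1.5 times the value reported. Detection, signal levels and differences at matched signal had to stay within 1 SD of it. For any size of change (380 higher and 688 lower), limma with the replicate block, which pairs the samples of an array, called 1655 and 2248, the processed signal without further normalization 238 and 443, no filter on dim probes 196 and 335, and eBayes without trend 121 and 232. Without further normalization, filter and trend in turn, 25.4%, 24.5% and 24.9% of the older series had an unadjusted p under 0.05 in limma. The shares of all probes tested were 19.8%, 17.4% and 20.3%. Leaving out 1 replicate gave 0 higher and 0 to 3 lower without the block, and 1064, 1710 and 857 higher and 1574, 2351 and 1299 lower with it (without replicate 1, 2 and 3), a setting chosen after seeing the data. In these blocked fits 36.5%, 41.2% and 31.6% of the older series had an unadjusted p under 0.05 in limma, against 29.0%, 33.6% and 25.4% of all probes tested. For at least 2-fold (13 higher and 45 lower), the replicate block gave 32 higher, a filter on both groups 7 higher, and normexp with loess and Aquantile 4 higher and 11 lower, or 4 and 12 with the block, the last also chosen after seeing the data. Without 1 replicate, 0 were higher and 0 to 3 lower, and 27, 33 and 30 were higher with the block. These blocked counts stand without the share of all probes called, so they do not show a difference from the rest. For the methods' t-test (27 higher and 47 lower), normexp gave 4 and 11, no filter 50 higher, the filter on both groups 7 higher, adjustment 1 and 14, and leaving out 1 replicate 17 to 35 higher. The t-test counts under these settings are likewise given here without the share of all probes called. They do not show a difference from the rest either. Requiring all spots for detection gave 73.9% in the control and 81.0% in *Epist*. The median log2 signal was 8.56 and 8.55 with normexp, loess and Aquantile. At matched signal, the excess of the absolute log2 fold change over the other probes was 0.021, against 0.017 with normexp and 0.021 to 0.025 with 1 replicate left out, and the signed difference of -0.037 was -0.030 with no filter on dim probes. The cause of these shifts was not tested.

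The fits shared the same 3 arrays with 1 dye orientation, and no array exchanges the dyes. Probes near the background have fold changes that depend on the background correction, and their levels are limited by the signal over background. The block leaves fold changes as they are, and all 1068 calls were also made with it.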

Other observations

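The log2 values of the deposited series table were recovered from the scanner files. For 17464 probes of the older series, values computed here by averaging the spots and normalizing over the 6 samples differed from the deposited ones by a median of 0.00033 and by at most 0.016 on the log2 scale. With the deposited values in place of those computed here, limma called 382 probes higher and 698 lower, and all 1068 calls described above were among them. In that fit 27.5% of the older series had an unadjusted p under 0.05 in limma, against 21.0% of all probes tested.

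The largest decrease among the tested probes of the older series, on the quantile normalized scale, was not among those called. Its log2 fold change was -2.57, and the probe is not named because it missed the adjusted threshold in limma.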
